A study of Homo sapiens with 14 samples.

Results

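RNA levels in CEM cells carrying a short hairpin against JMJD3 were set against those in CEM cells carrying a short hairpin against UTX. The members of this comparison were the genes with at least 50 read counts in either of the 2 pooled count columns, 16229 of the 55075 genes in the deposited table. CEM is an established human T cell acute lymphoblastic leukemia (T-ALL) line. Cells grew in suspension and were infected with retroviruses that expressed a hairpin against JMJD3, against UTX or, as the control, against Renilla, a luciferase that human cells lack. The labels give 2 samples for each of these 3 CEM groups, and the authors deposited 1 pooled count per gene and hairpin. The labels name no hairpin sequence, day of harvest or selection of infected cells, and all 3 groups share the virus infection. Every ratio below was computed from the deposited counts, so a difference between the hairpins has no replicate check and carries no p-value. The 95% intervals are exact binomial (Clopper-Pearson) intervals of the ratio of 2 counts and cover counting error only.

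JMJD3 is the product of KDM6B and UTX that of KDM6A. Both are JmjC-domain enzymes that erase methylation of lysine 27 on histone H3, the mark that Polycomb repressive complex 2 writes on silenced genes. UTX is also a subunit of the KMT2C and KMT2D complexes, which methylate lysine 4 of histone H3 at enhancers, and it is mutated in part of human T-ALL. The series was made to contrast the roles of the enzymes in this leukemia, and the direct comparison of the hairpins asks where they differ without passing through the control.

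The targeted genes followed their hairpins. KDM6B was at 58.7 CPM with shJMJD3, 189 with shUTX and 192 in the control, a log2 ratio of shJMJD3 to shUTX of -1.69 (95% interval -1.74 to -1.64). CPM is the count relative to the library size, which was scaled by the trimmed mean of M values (TMM) over the 3 CEM columns. KDM6A was at 97.5 CPM with shJMJD3, 49.2 with shUTX and 127 in the control, a log2 ratio of 0.99 (95% interval 0.93 to 1.05). KDM6B was thus lowest in the shJMJD3 column and alike in the others, and KDM6A was lowest in the shUTX column. Relative to shRenilla the log2 ratio of KDM6B was -1.71 with its own hairpin, and that of KDM6A was -1.36 with its own hairpin. With the JMJD3 hairpin KDM6A lay -0.38 from the control on the log2 scale.

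The columns held 70280185 counts with shJMJD3, 70834792 with shUTX and 104190473 with shRenilla, of which 94.1%, 93.2% and 93.0% fell on protein-coding genes. Mitochondrially encoded genes took 4.17%, 3.24% and 2.79%. Where a gene is given in counts below, these are raw counts that were not scaled. The TMM-scaled library sizes were 62522424 with shJMJD3, 74143712 with shUTX and 111891578 with shRenilla. An equal level therefore gives more counts in the control than with either hairpin. T cell genes were expressed in all columns: CD3E was at 1114 CPM with shJMJD3, 1128 with shUTX and 1094 in the control, and the other T cell markers, CD3D, CD3G, CD247, CD2, CD5, CD7, LCK and ZAP70, were all among the members. MS4A1 and EBF1 of the B lineage, ELANE and FCGR3A of myeloid cells, and GZMB and NCR1 of natural killer cells had no count with either hairpin, and none of the 10 erythroid markers reached the count minimum. Other markers did reach it: 7 of 12 of the B lineage, 2 of 12 of myeloid and 4 of 10 of natural killer cells.

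Across all members the median log2 ratio of shJMJD3 to shUTX was -0.03 and the median absolute ratio 0.53. Of the 16229 members, 1875 (11.6%) were at least 2-fold higher with shJMJD3 and 2105 (13.0%) at least 2-fold lower. At 4-fold or more there were 499 higher and 518 lower genes, and at 16-fold or more 56 and 52. When levels were scaled to column totals and not by TMM, every log2 ratio moved by -0.23, and the 2-fold counts then stood at 1317 higher and 2966 lower. With that scaling 21 of the 189 named genes at 2-fold or more, all of them higher with shJMJD3, came to between 0.80 and 1.00 and so under 2-fold. At 1.5-fold, 3548 members (21.9%) were higher and 3855 (23.8%) lower. Of 12407 protein-coding members 10.8% were at least 2-fold higher and 11.4% lower. The counting interval excluded equal levels for 13888 of the members under TMM. Its median width was 0.22 on the log2 scale, near the size of the shift under column totals, so that number depends on the scaling. In the authors' deposited table, whose p-values compare the reads of these libraries, 4636 genes were marked higher and 9007 lower of 25729 genes with a p-value. Their direction is the sign of the authors' normalized fold change, with no minimum of size or count. That split therefore cannot be set directly against the TMM-scaled counts above.

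Of the members, 14630 had at least 50 counts in both columns, 497 entered only through shJMJD3 and 1102 only through shUTX. A gene that entered through 1 column alone had to differ in raw count but not in scaled level. A count of 50 stands for 0.80 CPM with shJMJD3 and 0.67 CPM with shUTX, so the minimum was easier to reach with shUTX. Of these genes, 400 of the 497 and 718 of the 1102 were at least 2-fold apart. A 200-count minimum left 1407 on the shJMJD3 side against 1410 on the shUTX side, and no minimum left 4749 against 4360. The part of the minimum in the balance of directions was not tested further. The 59 genes whose larger count was exactly 50 had a median log2 ratio of -0.34, from -4.59 to 3.32, and the 40 genes at 49, just outside, had a median of -0.06, from -4.56 to 3.85.

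**Figure D1:**
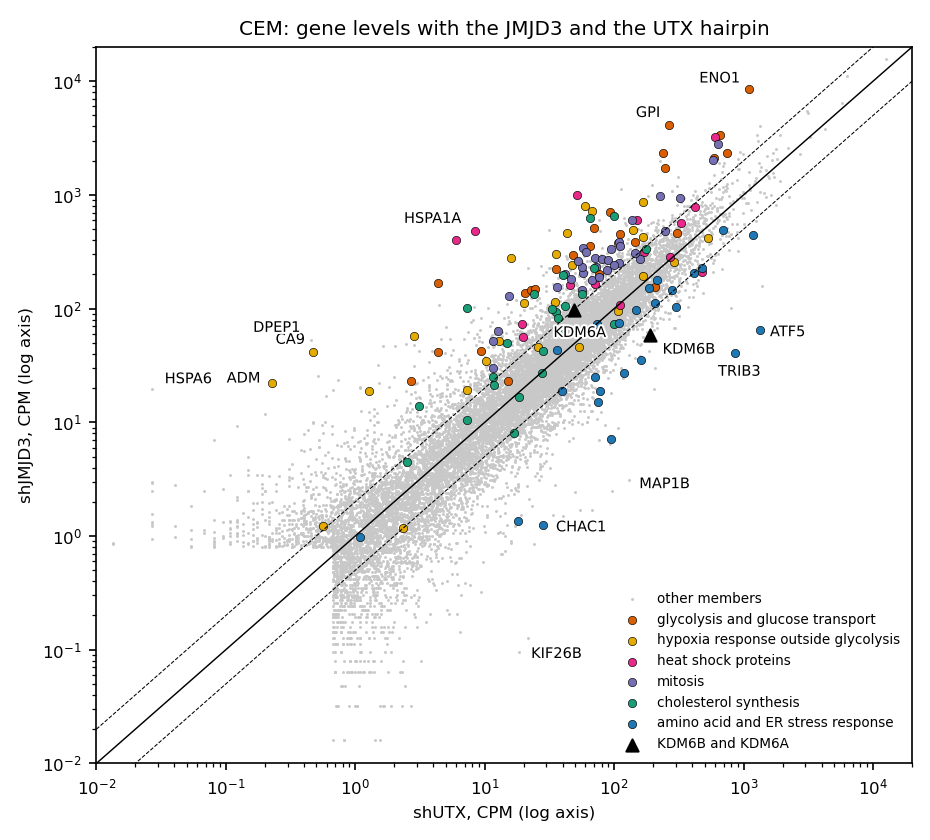
Level of each member with shUTX (horizontal axis) and with shJMJD3 (vertical axis) in CPM, both on log axes; the solid line marks equal levels, the dashed lines a 2-fold difference, and 16221 of 16229 members have a count in both columns and are drawn. Glycolysis, hypoxia, heat shock, mitosis and cholesterol genes lie mostly above the upper dashed line, amino acid and ER stress genes mostly under the lower one, and KDM6B and KDM6A on opposite sides of the diagonal.

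Glucose transport and glycolysis had the highest median of all lists. Cells take up glucose through facilitative transporters and split it to pyruvate in the cytosol, and proliferating leukemia cells pass much of that pyruvate on to lactate. All 25 listed genes were members, 22 were at least 2-fold higher with shJMJD3, none was at least 2-fold lower, and their median log2 ratio was 2.63 against -0.03 for all members. Their summed level was 29007 CPM with shJMJD3, 5112 with shUTX and 4342 with shRenilla.

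Among transporters, the glucose carrier SLC2A1 was at 509 CPM with shJMJD3, 70.1 with shUTX and 60.6 in the control, a log2 ratio of 2.86 (95% interval 2.82 to 2.90). SLC2A3, a high-affinity glucose carrier, gave 2.74 (2.66 to 2.82), and SLC16A3, which exports lactate, gave 2.68 (2.61 to 2.76). SLC16A1, the other monocarboxylate carrier, went against them at -0.43 (-0.46 to -0.39), under 1.5-fold. HK2, which phosphorylates glucose on entry, was at 150.2 CPM with shJMJD3, 24.4 with shUTX and 23.5 in the control. GPI, which turns glucose 6-phosphate into fructose 6-phosphate, was at 4096 CPM with shJMJD3, 266 with shUTX and 219 in the control, or 15.4-fold higher with shJMJD3. For these genes the shUTX column lay within 0.28 of shRenilla on the log2 scale, and apart from SLC16A1 it was the shJMJD3 column that stood high.

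Most genes of the later steps were higher with shJMJD3 as well. PGK1, the first ATP-forming enzyme, was at 2344 CPM with shJMJD3, 239 with shUTX and 207 in the control, a log2 ratio of 3.29 (3.27 to 3.32). ENO1, enolase 1, was at 8582 CPM with shJMJD3, 1106 with shUTX and 849.5 in the control, and with a gain of that size it was among the 8 protein-coding genes that gained most CPM. LDHA, the muscle-type lactate dehydrogenase subunit, had a ratio of 2.80 (2.78 to 2.83), whereas LDHB, the heart-type subunit, had 0.61 (0.58 to 0.63). PFKM, the muscle phosphofructokinase, also stayed low in the list at 0.61 (0.50 to 0.73), while PFKP and PFKL both stood at 1.40. Of the regulators, PFKFB4, which makes and breaks the allosteric activator fructose 2,6-bisphosphate, was at 169 CPM with shJMJD3, 4.33 with shUTX and 3.92 in the control, the largest ratio of the list at 5.28 (5.13 to 5.45). PDK1, which restrains the use of pyruvate in the mitochondrion by phosphorylating pyruvate dehydrogenase, had 2.65 (2.59 to 2.71). Counts of GAPDH and PGAM1, which have many near-identical pseudogene copies, are uncertain, and their ratios were 1.66 and 3.25.

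The list of hypoxia response genes outside glycolysis showed the same direction. Under low oxygen the HIF transcription factors escape hydroxylation by EGLN enzymes and degradation through VHL, and bind sites with the core ACGTG or GCGTG. Of 32 listed genes 27 were members, 20 were at least 2-fold higher, none was at least 2-fold lower, and the median log2 ratio was 1.82. The 5 genes of oxygen sensing had a median of -0.18, from -0.97 to 2.38, with 1 at least 2-fold higher. The 22 targets had a median of 2.18. HIF1A itself was at 257 CPM with shJMJD3, 292 with shUTX and 273 in the control, EPAS1, which encodes the HIF-2 alpha subunit, gave -0.22 (-0.29 to -0.15), and VHL gave -0.17 (-0.22 to -0.12). The level of the transcripts for the HIF subunits therefore differed by under 1.5-fold between the hairpins.

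CA9, a carbonic anhydrase of the cell surface, had 2590 counts with shJMJD3, 35 with shUTX and 20 in the control, a log2 ratio of 6.37 (95% interval 5.98 to 6.98). ADM, the vasodilator peptide adrenomedullin, had 1398 counts with shJMJD3, 17 with shUTX and 53 in the control, and its ratio was 6.44 (5.92 to 7.39). BNIP3, a mitochondrial receptor for autophagy, was at 279 CPM with shJMJD3, 15.9 with shUTX and 9.53 in the control. All of these were at least 16-fold higher with shJMJD3. NDRG1, a stress-responsive cytosolic protein, was at 797 CPM with shJMJD3, 59.3 with shUTX and 58.2 in the control. P4HA1, a subunit of collagen prolyl hydroxylase, was at 722 CPM with shJMJD3, 67.8 with shUTX and 36.6 in the control, and P4HA2 had 1181 counts with shJMJD3, 94 with shUTX and 10 in the control. For P4HA2 and PPFIA4 the shUTX column also stood well above the control, with log2 ratios of shUTX to shRenilla of 3.54 and 2.24. VEGFA, the vascular growth factor, was nearly even at 0.22 (0.19 to 0.26), and EGLN3, an oxygen sensor, was lower at -0.97 (-1.41 to -0.59).

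Promoter stretches of CA9, BNIP3, GPI and LDHA are printed because these genes carry the difference and their promoters hold the letters ACGTG. RefSeq promoter windows on GRCh38.p14, from 250 bases before to 50 bases after a gene's start, matched 9978 of the 12407 protein-coding members. ACGTG on either strand, which overlaps CACGTG where that occurs, was found for 15 of 23 glycolysis genes (65.2%) and 14 of 23 hypoxia genes (60.9%), against 32.3% of all 9978 members and 21.4% of all 35116 RefSeq windows of that length. A gene counted when any of its windows held the letters, while the RefSeq share is per single window, so these are unlike measures. Among the 1065 matched protein-coding members at least 2-fold higher with shJMJD3 the share was 32.1%. The other core, GCGTG, was found for 69.6% of the glycolysis and 65.2% of the hypoxia genes, against 58.0% of all 9978 members. Its share was 55.8% among members at least 2-fold higher and 46.0% among those at least 4-fold higher. The stretches follow, 5′ to 3′ in the direction of the gene, with ACGTG or its reverse complement in capitals. They lie at chr9:35673868-35673927 (plus strand), chr10:131982014-131982083 (minus strand), chr19:34364802-34364861 (plus strand) and chr11:18394363-18394502 (plus strand), all upstream of the RefSeq start.
CA9: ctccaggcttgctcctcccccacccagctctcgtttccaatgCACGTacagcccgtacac
BNIP3: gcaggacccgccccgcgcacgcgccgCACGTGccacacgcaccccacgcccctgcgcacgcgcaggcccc
GPI: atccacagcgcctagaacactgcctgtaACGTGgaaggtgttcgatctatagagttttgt
LDHA: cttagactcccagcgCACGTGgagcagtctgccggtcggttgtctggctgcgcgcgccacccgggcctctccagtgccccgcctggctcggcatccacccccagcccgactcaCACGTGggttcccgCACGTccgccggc
The stretch of CA9 holds 1 match, that of BNIP3 holds 2 that overlap, that of GPI holds 1 and that of LDHA holds 5. Each CACGTG was counted as 2 overlapping matches, 1 per strand, so those of LDHA are not all separate. A match describes the letters in this window and is not evidence of a bound site.

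Heat shock proteins were higher with shJMJD3 for the stress-inducible members above all. These chaperones fold and rescue proteins, and HSF1 drives the inducible ones when proteins misfold. All 15 listed genes were members, 9 were at least 2-fold higher and 1 at least 2-fold lower, with a median log2 ratio of 1.502. HSPA1A was at 479.8 CPM with shJMJD3, 8.39 with shUTX and 9.03 in the control and HSPA1B at 399 CPM with shJMJD3, 6.04 with shUTX and 9.28 in the control. They are near-identical copies of the inducible HSP70 gene, so the split of reads between them is uncertain; their ratios were 5.83 (5.72 to 5.95) and 6.04 (5.91 to 6.18). DNAJB1, the HSP40 partner of HSP70, was at 995 CPM with shJMJD3, 51.6 with shUTX and 58.6 in the control, a ratio of 4.27 (4.22 to 4.32). HSP90AA1, the inducible HSP90, was at 3223 CPM with shJMJD3, 602 with shUTX and 715 in the control, and its constitutive relative HSP90AB1 had 0.91 (0.89 to 0.93). HSF1 was even at -0.06 (-0.11 to -0.02). HSPA9, the HSP70 of mitochondria, was the member at least 2-fold lower, at -1.19 (-1.21 to -1.16).

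HSPA6, an inducible HSP70 outside the list, had the highest ratio of the protein-coding genes with 200 counts or more by the interval bound nearer to 0. It had 1216 counts with shJMJD3, 2 with shUTX and 22 in the control, and with 2 counts in the denominator its log2 ratio of 8.44 has an interval from 7.64 to 12.54. Its promoter is printed because it holds a heat shock element, searched on both strands as TTC, GAA and TTC with 2 bases between neighbours, a motif added after the values were seen. That motif was found in 5 of 14 heat shock promoters (35.7%) and for 0.521% of all 9978 matched members. The share was 0.490% of all RefSeq windows, counted per window and not per gene. The stretch lies at chr1:161524430-161524499 (plus strand, GRCh38.p14), upstream of the start, with the element in capitals.
HSPA6: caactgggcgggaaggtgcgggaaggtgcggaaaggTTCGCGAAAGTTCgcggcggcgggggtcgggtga

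**Figure D2:**
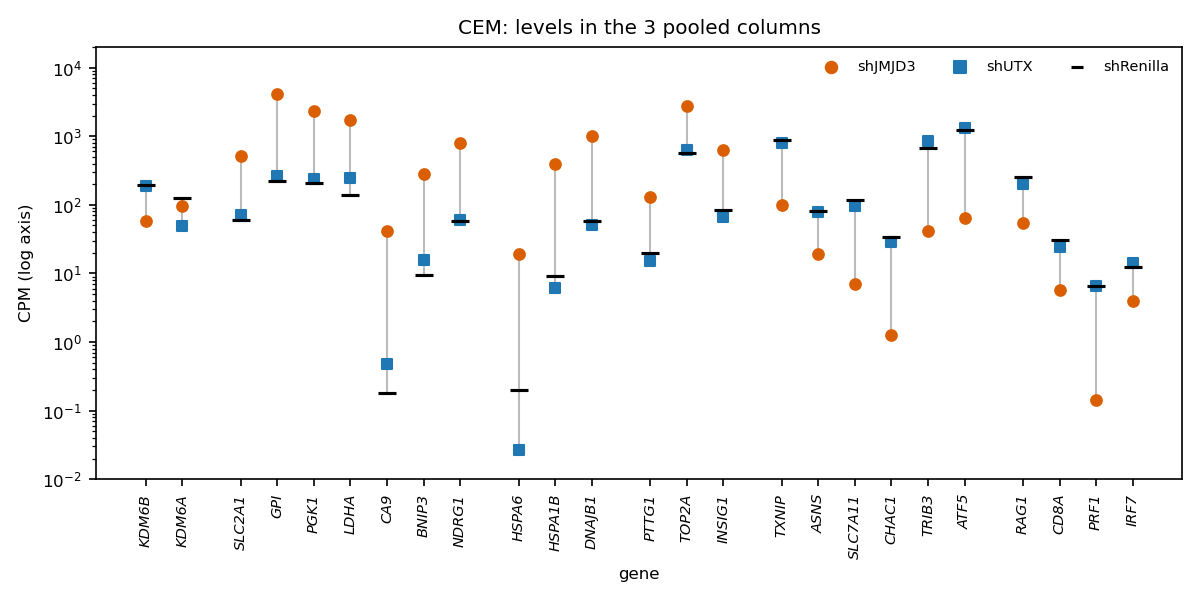
CPM of chosen genes with shJMJD3 (circles), shUTX (squares) and shRenilla (bars) in CEM, on a log axis, 1 pooled value each. Squares and bars lie near each other for most genes while circles stand apart; among the exceptions are KDM6A and HSPA6, whose shUTX values lie under the control.

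Mitosis genes were higher with shJMJD3 throughout the list. These genes build the spindle, condense chromosomes and drive entry into and exit from M phase. All 33 were members with positive ratios, 31 were at least 2-fold higher, and the median log2 ratio was 1.82, with the lowest value at 0.77 for FOXM1, their transcription factor. PTTG1, which encodes securin, was at 128.9 CPM with shJMJD3, 15.36 with shUTX and 20.01 in the control. CDK1, the kinase of mitotic entry, was at 315 CPM with shJMJD3, 60.1 with shUTX and 70.3 in the control, and DLGAP5, a spindle protein, had a ratio of 2.58 (2.54 to 2.63). TOP2A, which untangles chromosomes, was at 2783 CPM with shJMJD3, 629 with shUTX and 569 in the control, and it was among the 8 genes that gained most CPM. The proliferation marker MKI67 had 1.82 (1.80 to 1.83). KIF11, the spindle motor, at 0.99 (0.96 to 1.02), was the other member under 2-fold.

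DNA replication genes differed less. Of 31 members 7 were at least 2-fold higher and none 2-fold lower, and the median was 0.36. RRM2, the cell-cycle regulated subunit of ribonucleotide reductase, was at 297 CPM with shJMJD3, 78.9 with shUTX and 94.7 in the control, and TYMS, which makes thymidylate, had 1.17 (1.15 to 1.20). The MCM helicase genes were nearly even: MCM7 stood at -0.07 (-0.10 to -0.05), and MCM2 to MCM6 lay between 0.13 and 0.26. The G1 genes went in both directions. CDKN2D, a CDK4 and CDK6 inhibitor, was at 75.0 CPM with shJMJD3, 17.8 with shUTX and 34.6 in the control, whereas the cyclins CCND1 and CCND2 had ratios of -1.68 (-2.12 to -1.32) and -2.70 (-4.53 to -1.82). CCND1 and CCND2 were low in all columns, CCND2 at 6 counts with shJMJD3, 58 with shUTX and 71 in the control. CDK6, the main G1 kinase of T cells, gave -0.57 (-0.58 to -0.55), and CCND3, its partner, 0.91 (0.89 to 0.93). CCAAT, which the factor NF-Y binds, was found in 23 of 27 mitosis promoters (85.2%) and 15 of 18 cholesterol promoters (83.3%), against 43.5% of all 9978 members and 46.9% of those at least 2-fold higher.

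Most genes of cholesterol synthesis were higher with shJMJD3. SREBP-2, encoded by SREBF2, switches these genes on when sterols in the endoplasmic reticulum run low. Of 26 listed genes 24 were members, 14 were at least 2-fold higher and 1 at least 2-fold lower, with a median of 1.21. INSIG1, which retains the SREBP complex, was at 623 CPM with shJMJD3, 65.5 with shUTX and 84.3 in the control, a ratio of 3.25 (3.21 to 3.29). HMGCS1, which acts early in the mevalonate pathway, had a ratio of 2.30 (2.25 to 2.36). SREBF2 itself gave 0.93 (0.90 to 0.96), and SCAP, its escort, -0.44 (-0.50 to -0.39). TM7SF2, a sterol reductase, was the gene on the other side at -1.05 (-1.20 to -0.90). For INSIG1 the log2 ratio of shUTX to shRenilla was -0.36, so part of the gap between the hairpins lay on that side.

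Fatty acid synthesis had 11 members, 4 at least 2-fold higher and 1 lower, with a median of 0.86. SCD, the desaturase that makes oleate, was at 518 CPM with shJMJD3, 66.5 with shUTX and 64.5 in the control, while the synthase FASN was even at -0.08 (-0.12 to -0.03). ELOVL6, which lengthens palmitate, was lower with shJMJD3, at 15.8 CPM with shJMJD3, 48.5 with shUTX and 39.4 in the control.

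The amino acid and endoplasmic reticulum (ER) stress response was the list with the lowest median. ATF4, translated when stress kinases slow protein synthesis, switches on amino acid transporters, asparagine synthesis and the feedback genes of this response. Of 26 listed genes 25 were members, 15 were at least 2-fold lower with shJMJD3, none was at least 1.5-fold higher, and the median log2 ratio was -1.08. Their summed level was 2608 CPM with shJMJD3, 7193 with shUTX and 7143 with shRenilla. The transcript of ATF4 itself was nearly level, at 153 CPM with shJMJD3, 185 with shUTX and 188 in the control.

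Among regulators, TRIB3, a pseudokinase that feeds back on ATF4, was at 40.9 CPM with shJMJD3, 853 with shUTX and 667 in the control, or 20.9-fold lower with shJMJD3. ATF5, a relative of ATF4 under its control, was at 64.9 CPM with shJMJD3, 1327 with shUTX and 1233 in the control, the largest loss in CPM among protein-coding genes. DDIT3, also named CHOP, was at 25.2 CPM with shJMJD3, 71.3 with shUTX and 76.9 in the control, and CEBPB had a ratio of -2.13 (-2.21 to -2.06). Both the shUTX and the control column were high for these genes. Of the genes of amino acid supply, SLC7A11, the cystine importer, was at 7.09 CPM with shJMJD3, 95.1 with shUTX and 119 in the control. SLC7A5, the leucine carrier, was at 447 CPM with shJMJD3, 1177 with shUTX and 1092 in the control. ASNS, asparagine synthetase, was at 18.9 CPM with shJMJD3, 78.3 with shUTX and 82.0 in the control, and CBS, of cysteine synthesis, had 85 counts with shJMJD3, 1334 with shUTX and 1542 in the control. CHAC1, which degrades glutathione, had 78 counts with shJMJD3, 2108 with shUTX and 3835 in the control, the lowest ratio of the list at -4.48 (-4.86 to -4.18). The ER chaperone HSPA5 differed less, at -0.61 (-0.66 to -0.57), than HERPUD1, of ER protein disposal, at -2.19 (-2.26 to -2.13). DNAJB9 and VLDLR were within 1.5-fold, at 0.26 and -0.00.

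The letters TGATGNAA, a pattern that ATF4 and C/EBP factors bind, were found on either strand in 9 of 24 promoters of this list (37.5%), against 2.77% of all members and 3.64% of the members at least 2-fold lower. In all RefSeq windows, counted per window and not per gene, the share was 3.62%. The stretches of CHAC1 at chr15:40953231-40953300 (plus strand) and ASNS at chr7:97872439-97872508 (minus strand), on GRCh38.p14 and upstream of the start, show the match in capitals, for CHAC1 as its reverse complement.
CHAC1: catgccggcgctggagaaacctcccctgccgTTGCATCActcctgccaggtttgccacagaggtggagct
ASNS: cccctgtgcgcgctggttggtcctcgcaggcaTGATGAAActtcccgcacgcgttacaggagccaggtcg

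Genes that supply and load amino acids outside that list were lower in part. Of 11 members of serine and one-carbon synthesis 3 were at least 2-fold lower, with a median of -0.17: GPT2, an alanine transaminase, had 63 counts with shJMJD3, 1058 with shUTX and 1235 in the control, PYCR1, of proline synthesis, a ratio of -1.48 (-1.62 to -1.34), and PSAT1, of serine synthesis, -1.13 (-1.17 to -1.08). MTHFD2, a mitochondrial folate enzyme, was even at 0.14 (0.10 to 0.18). The 20 cytosolic aminoacyl-tRNA synthetases had a median of -0.52, with 5 at least 2-fold lower and 1 higher. IARS, which loads isoleucine, was at 224 CPM with shJMJD3, 676 with shUTX and 654 in the control, and SARS and WARS, for serine and tryptophan, both stood at -1.58. DARS, which loads aspartate, went the other way, at 597 CPM with shJMJD3, 239 with shUTX and 186 in the control.

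**Figure D3:**
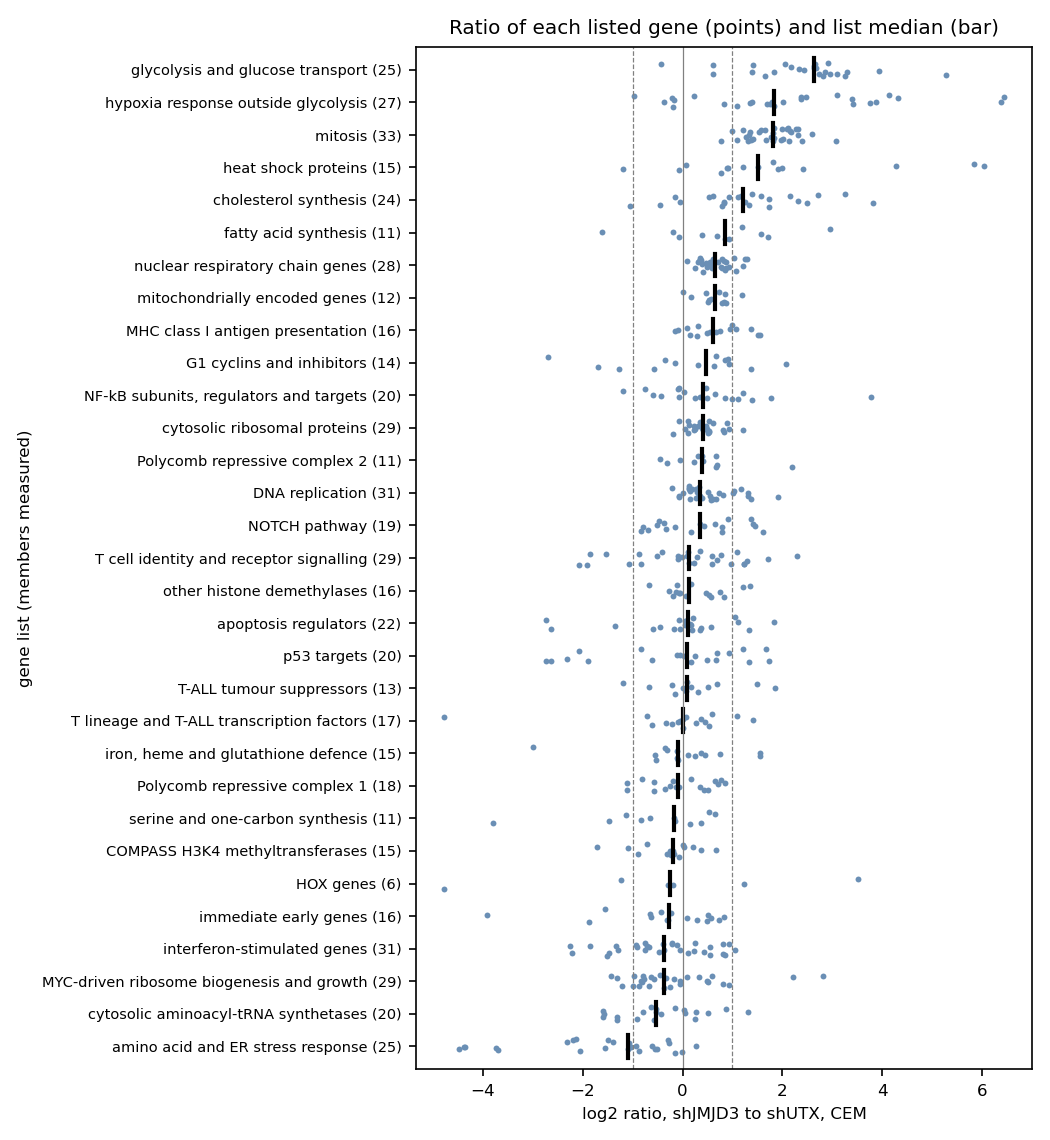
Log2 ratio of shJMJD3 to shUTX in CEM for every measured member of each gene list (points, with vertical jitter) and the list's median (bar); dashed lines mark 2-fold. Medians run from -1.08 for the amino acid and ER stress list to 2.63 for glycolysis, and the points of the mitosis list all lie above 0.

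Of all lists, 13 had a median at least 1.5-fold higher with shJMJD3 and 1 a median at least 1.5-fold lower; 4 of the 13 were marker lists with few members. With column totals there were 9 and 5. The remaining lists are given by role, with the shares of all members, 11.6% higher and 13.0% lower at 2-fold, as their background.

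In the NOTCH pathway, the oncogenic route in most T-ALL, 19 of 26 genes were members, 4 were at least 2-fold higher and none lower, with a median of 0.35. NOTCH1, the receptor, was at 319.6 CPM with shJMJD3, 399.5 with shUTX and 422 in the control. The DNA-binding partner RBPJ gave 1.37 (1.33 to 1.41). Of its targets, HES1 was at 249.7 CPM with shJMJD3, 90.7 with shUTX and 91.8 in the control and DTX1 at 40.1 CPM with shJMJD3, 13.1 with shUTX and 14.2 in the control, both higher with shJMJD3, while MYC was even at -0.14 (-0.18 to -0.11) and IGF1R gave -0.51 (-0.60 to -0.43). PTCRA, which encodes the pre-TCR alpha chain, was low with both hairpins, at 96 counts with shJMJD3, 89 with shUTX and 462 in the control. The list of MYC-driven growth genes had a median of -0.37 over 29 members, and its 20 genes of ribosome biogenesis one of -0.51, with 2 at least 2-fold lower and none higher. MYBBP1A, a nucleolar protein, had -1.30 (-1.37 to -1.24) and POLR1A, the large subunit of RNA polymerase I, -1.21 (-1.27 to -1.15), whereas nucleolin, NCL, had -0.25 (-0.26 to -0.24). SRM, of polyamine synthesis, was at 31.0 CPM with shJMJD3, 83.8 with shUTX and 77.8 in the control, and the transferrin receptor TFRC at 1439.7 CPM with shJMJD3, 312 with shUTX and 291 in the control.

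T cell identity genes split in both directions: of 29 members 6 were at least 2-fold higher and 5 lower, and the median was 0.13 (-0.10 under column totals). The CD3 chains were even, with CD3E at -0.02 and CD3G at 0.13. CD4 was at 503 CPM with shJMJD3, 153 with shUTX and 128 in the control, and CD27, a costimulatory receptor, at 59.3 CPM with shJMJD3, 12.1 with shUTX and 10.1 in the control. CD8A, the other coreceptor, was at 5.662 CPM with shJMJD3, 23.99 with shUTX and 30.47 in the control. RAG1 and RAG2, which cut the antigen receptor genes, were at 53.6 CPM with shJMJD3, 200.4 with shUTX and 255 in the control for RAG1 and 9.48 CPM with shJMJD3, 34.4 with shUTX and 39.8 in the control for RAG2. CD1A, a cortical thymocyte antigen, gave -1.52 (-1.76 to -1.30), and ZAP70, the receptor-proximal kinase, -1.07 (-1.10 to -1.03). CD4 and CD27 were thus higher and CD8A, RAG1, RAG2 and CD1A lower with shJMJD3, and in each of these the control lay nearer to shUTX.

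Among 17 measured lineage and T-ALL transcription factors 2 were at least 2-fold higher and 1 lower, and the median was 0.02 (-0.22 under column totals and -0.11 as a mean). TAL1, a T-ALL oncogene, was at 93.5 CPM with shJMJD3, 35.3 with shUTX and 33.9 in the control, and LYL1, its relative, gave 1.09 (1.01 to 1.19). GATA3 and BCL11B, of T lineage commitment, were at 0.37 and 0.07, and RUNX1 at -0.61 (-0.63 to -0.60). HOXA10 had 2 counts with shJMJD3, 122 with shUTX and 142 in the control, a ratio of -4.77 with an interval from -8.75 to -3.80 that rests on 2 counts. In the HOX list, with 6 members, HOXA13 went the other way at 67 counts with shJMJD3, 5 with shUTX and 2 in the control. Of 13 T-ALL tumour suppressors 2 were at least 2-fold higher and 1 was lower, and the median was 0.09 (-0.14 under column totals). WT1 was at 97.5 CPM with shJMJD3, 27.1 with shUTX and 30.8 in the control, and CYLD, a deubiquitinase that restrains NF-kB, at 15.3 CPM with shJMJD3, 35.1 with shUTX and 36.7 in the control. PHF6 and BCL11B were even, at 0.09 and 0.07.

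In the NF-kB list, 5 of 20 members were at least 2-fold higher and 1 was lower, the median was 0.41, and the subunits NFKB1 and RELA stood at -0.09 and -0.07. TRAF1, a signalling adaptor and target, was at 68.7 CPM with shJMJD3, 4.99 with shUTX and 7.24 in the control, and CCR7, a chemokine receptor, gave 1.77 (1.70 to 1.84). Interferon-stimulated genes were lower in 7 of 31 members at 2-fold and higher in 1, with a median of -0.37. IRF7, which amplifies interferon genes, was at 3.90 CPM with shJMJD3, 14.2 with shUTX and 12.5 in the control. HERC6 gave -2.25 (-2.45 to -2.07), IFIT2 -2.22 (-2.58 to -1.92) and MX1 -1.51 (-1.68 to -1.35). RSAD2, an antiviral enzyme, was the gene on the other side; with 21.4 CPM with shJMJD3, 10.3 with shUTX and 22.2 in the control, it was the shUTX column that stood apart, and its log2 ratio was 1.06, or 0.82 with column totals. MHC class I presentation had 16 members, 4 at least 2-fold higher and none lower, with a median of 0.61. B2M, the light chain of every class I molecule, was at 1916 CPM with shJMJD3, 651 with shUTX and 707 in the control, and HLA-B gave 1.38 (1.35 to 1.40). HLA genes resemble each other closely, so their counts are uncertain.

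Chromatin genes differed in a few subunits, and in each list the shares at 2-fold were near or under those of all members. Polycomb repressive complex 2 had 11 members with a median of 0.39, and its core was close to even: EZH2 stood at 0.23 (0.18 to 0.28), SUZ12 at 0.31 (0.28 to 0.34) and EED at 0.70 (0.60 to 0.79). PHF19, an accessory subunit that reads methylated lysine 36 of histone H3, was at 257 CPM with shJMJD3, 56.4 with shUTX and 58.3 in the control, the only member of the list at least 2-fold apart. Of 18 Polycomb repressive complex 1 genes, CBX6 and CBX7, which read lysine 27 methylation, were at least 2-fold lower, at -1.12 (-1.17 to -1.06) and -1.12 (-1.28 to -0.97), and none was 2-fold higher. The 15 genes of the H3K4 methyltransferase complexes had a median of -0.20. SETD1B was at 48.9 CPM with shJMJD3, 161 with shUTX and 168 in the control, and MLL2, now KMT2D, the catalytic partner of UTX, was at 299.6 CPM with shJMJD3, 634 with shUTX and 585 in the control. WDR5, a shared subunit, stood at -0.07. Of the 16 other histone demethylases 2 were at least 2-fold higher, with a median of 0.12 (-0.11 under column totals). KDM3A and KDM4B, which demethylate lysine 9 on histone H3, were at 427 CPM with shJMJD3, 166 with shUTX and 168 in the control for KDM3A and 226 CPM with shJMJD3, 97.9 with shUTX and 86.6 in the control for KDM4B, whose log2 ratio of 1.21 became 0.97 with column totals.

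Genes of energy supply outside glycolysis differed less. All 28 nuclear respiratory chain genes had positive ratios under TMM, 5 at least 2-fold, with a median of 0.65. UQCRFS1, of complex III, was the highest at 1.29 (1.15 to 1.43). The lowest ratio was 0.09, which is smaller than the shift of -0.23 under column totals. The 12 measured mitochondrially encoded genes also had a median of 0.65, and 1, MT-CO2 at 1.19 (1.18 to 1.20), passed 2-fold; with column totals it stood at 0.96. The share of mitochondrial reads in the column moved with these ratios. The sources used here do not say which samples were polyA-selected and which ribosome-depleted, and the part of that choice was not tested. Cytosolic ribosomal proteins had a median of 0.41 over 29 genes, with RPS3 alone past 2-fold, at 1.21 (1.19 to 1.24), and at 0.98 with column totals.

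Apoptosis genes and p53 targets had medians of 0.11 and 0.10 (-0.13 and -0.13 under column totals, -0.02 and -0.20 as means). BIRC5, both an inhibitor of apoptosis and a mitotic protein, was at 205 CPM with shJMJD3, 57.8 with shUTX and 50.2 in the control. TNFRSF10B, a TRAIL receptor, was at 2.70 CPM with shJMJD3, 18.2 with shUTX and 14.3 in the control, and BBC3, the BH3-only killer PUMA, had 41 counts with shJMJD3, 314 with shUTX and 481 in the control, both lower with shJMJD3. BCL2 gave -0.59 (-0.66 to -0.51), and MCL1 0.14 (0.11 to 0.18). SESN2, which the p53 and ATF4 lists share, was at 15.0 CPM with shJMJD3, 74.5 with shUTX and 69.9 in the control, while CCNG1 and DDB2, p53 targets, were higher at 1.67 (1.63 to 1.71) and 1.73 (1.65 to 1.81). Among immediate early genes, with a median of -0.26 (0.08 at 200 counts or more), EGR1 was at 28.7 CPM with shJMJD3, 84.4 with shUTX and 46.6 in the control, and KLF2, a factor of T cell quiescence, at 8.83 CPM with shJMJD3, 32.5 with shUTX and 45.2 in the control. The list of iron, heme and glutathione defence had a median of -0.09 (0.01 at 10 counts or more). Of its 15 members 2 were at least 2-fold higher, with BLVRB highest at 1.55, and 1 was at least 2-fold lower. The lower gene was TXNIP, an inhibitor of thioredoxin and of glucose uptake. It was at 101 CPM with shJMJD3, 799 with shUTX and 891 in the control, or 7.94-fold lower with shJMJD3.

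Outside the lists, several of the highest and lowest protein-coding genes with 200 counts or more were near absent in 1 column. Counts given here are raw, so those of the larger control column are not on the same scale. DPEP1, a membrane dipeptidase, had 3298 counts with shJMJD3, 34 with shUTX and 37 in the control, a ratio of 6.76 (6.36 to 7.38). TRPM5, a cation channel, had 578 counts with shJMJD3, 9 with shUTX and 4 in the control. NPPC, a natriuretic peptide, had 736 counts with shJMJD3, 15 with shUTX and 46 in the control, RAB11FIP5, of vesicle recycling, had 1582 counts with shJMJD3, 38 with shUTX and 83 in the control, and AK4, a mitochondrial adenylate kinase, had 1476 counts with shJMJD3, 55 with shUTX and 21 in the control. On the other side KIF26B, an unusual kinesin, had 6 counts with shJMJD3, 1354 with shUTX and 1240 in the control, a ratio of -7.19 (-9.02 to -6.45). IL31RA, a cytokine receptor chain, had 8 counts with shJMJD3, 1609 with shUTX and 1521 in the control. MAP1B, which binds microtubules, was at 3.12 CPM with shJMJD3, 129.9 with shUTX and 92.3 in the control, and RGS16, which turns off G protein signals, at 2.48 CPM with shJMJD3, 96.1 with shUTX and 65.7 in the control. These genes were expressed in both the shUTX and the shRenilla column. KLHDC7B, TREML2, SERPINB8, DHRS2 and SLC6A9, a glycine carrier, had ratios between -5.30 and -4.72. PRF1, the pore-forming perforin of killer lymphocytes, had 9 counts with shJMJD3, 481 with shUTX and 725 in the control.

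By level rather than ratio, the largest gains in CPM also included ITM2A, a membrane protein of thymocytes, at 4005 CPM with shJMJD3, 1349.7 with shUTX and 1071 in the control, ALDOA at 3333, 659 and 557 CPM in the same order, and MT-ND4 and MT-CO3. The largest losses included H1F0, a linker histone of resting cells, at 158 CPM with shJMJD3, 1393 with shUTX and 940.2 in the control. OGT, which adds N-acetylglucosamine to proteins, was at 443 CPM with shJMJD3, 1159 with shUTX and 1178 in the control, POLR2A, the largest subunit of RNA polymerase II, at 585 CPM with shJMJD3, 1245 with shUTX and 1032 in the control, and TMBIM6, an ER calcium regulator, at 808 CPM with shJMJD3, 1771 with shUTX and 1813 in the control. TCF7, a T lineage factor, was under 2-fold, at -0.71 (-0.72 to -0.70).

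The control column lay near shUTX for most of the genes that differed between the hairpins. Of the 1875 genes at least 2-fold higher with shJMJD3, 1511 (80.6%) had a shRenilla level within 1.5-fold of shUTX only, 45 (2.40%) within 1.5-fold of shJMJD3 only and 311 within neither. Of the 2105 at least 2-fold lower, 1833 (87.1%) were near shUTX only, 50 (2.38%) near shJMJD3 only and 214 near neither. The same shares over all members were not counted, so these have no background and only describe the genes that differed. The counts near shJMJD3 only fell to 14 higher and 26 lower genes with a stricter limit on closeness, and to 21 and 32 with a 2-fold limit. Under column totals the number of higher genes near shUTX only was 988. The median log2 ratios to shRenilla showed the same for the lists: glycolysis had 2.68 with shJMJD3 and 0.14 with shUTX, hypoxia 2.19 and 0.03, mitosis 2.01 and 0.19, and amino acid and ER stress -1.30 and -0.07. These ratios share their columns with the ratio of the hairpins and are no independent evidence of it.

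A few genes departed from that pattern, with the control near shJMJD3. CD44, an adhesion receptor, was at 291 CPM with shJMJD3, 115 with shUTX and 204 in the control. SYNGR1, a vesicle protein, was at 59.8 CPM with shJMJD3, 21.6 with shUTX and 41.0 in the control, and SEMA7A, a membrane-anchored semaphorin, at 84.5 CPM with shJMJD3, 33.7 with shUTX and 62.0 in the control. NKG7, of cytotoxic granules, TTC9 and GRAP2, an adaptor of the T cell receptor, had ratios of shUTX to shRenilla of -1.02, -0.95 and -0.65. All of these were lower with shUTX than with either other hairpin. In the other direction POU2AF1, a coactivator of OCT factors, was at 3.89 CPM with shJMJD3, 12.5 with shUTX and 5.37 in the control. CCNE1, cyclin E1, was at 3.68 CPM with shJMJD3, 8.90 with shUTX and 4.20 in the control, and FOXB1, a forkhead factor, at 96.4 CPM with shJMJD3, 216 with shUTX and 131 in the control. ENAH, C2orf81 and AC091172.1 were also higher with shUTX than in the other columns, with ratios of shUTX to shRenilla of 1.07, 0.82 and 0.98.

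The ratio of the same hairpins was also computed in CUTLL1, another T-ALL line, whose shJMJD3 and shUTX groups have 3 and 2 samples and which shares no column with CEM. There 2680 of 18287 genes (14.7%) stood 2-fold or more higher with shJMJD3 and 306 (1.67%) stood lower. CUTLL1 small RNAs took 11.7% of the counts with shJMJD3 and 2.58% with shUTX, and protein-coding genes 66.9% and 79.0%. Of the 2680 higher genes, 922 were protein-coding and 119 (4.44%) were small RNAs. Column totals shift the CUTLL1 log2 ratios by -0.33, and 860 genes were then lower. KDM6B stood at -1.04 and KDM6A at 1.09, each lower with its own hairpin as in CEM.

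The overlap was counted over the 15113 genes measured in both lines. Genes at least 2-fold higher with shJMJD3 in both numbered 205, which is 12.7% of the 1615 CEM genes and 17.3% of the 1185 CUTLL1 genes, beside 7.84% of all measured genes higher in CUTLL1 and 10.7% in CEM. The genes lower in both numbered 90, which is 5.10% of the 1763 CEM genes and 46.2% of the 195 CUTLL1 genes, beside 1.29% of all measured genes lower in CUTLL1 and 11.7% in CEM. With column totals the shared genes were 124 higher and 258 lower, so the balance between the directions turned. Among protein-coding genes 104 were higher and 72 lower in both. In opposite directions stood 33 of the CEM higher genes and 123 of the CEM lower genes. Genes that were higher in both included CD48, an adhesion receptor of lymphocytes, at 3.24 (3.08 to 3.42) in CEM and 2.22 (2.11 to 2.34) in CUTLL1. NCR3, a natural cytotoxicity receptor, stood at 3.13 and 2.35, and IGLL1, of the surrogate light chain, at 4.80 and 2.63. UNC93B1, which escorts Toll-like receptors, had 2.29 and 3.30, and MBP 2.28 and 3.67. PGAM1, FAM72B and HSPA1A also met the rule, but each has near-identical copies, and HSPA1B, the twin of HSPA1A, was at -0.25 in CUTLL1 beside 3.31.

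Genes lower in both were mostly at low levels. TRIO, a guanine nucleotide exchange factor, had 40 counts with shJMJD3, 487 with shUTX and 344 in the control and stood at -3.30 in CEM and -1.80 in CUTLL1. EHD3, of endosomal recycling, stood at -4.30 and -3.29, ESRP1, a splicing factor, at -2.86 and -2.36, and CALCRL, the receptor that adrenomedullin uses, at -1.75 and -2.71. ANKRD34C, GLT25D2, PARM1 and PARD3B lay between -2.17 and -1.81 in CUTLL1. In the amino acid list the direction was shared: TRIB3 had -1.08, ATF5 -1.10, ASNS -1.17 and CBS -1.37 in CUTLL1, where the list's median was -0.35 with 5 members at least 2-fold lower and 1 higher.

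**Figure D4:**
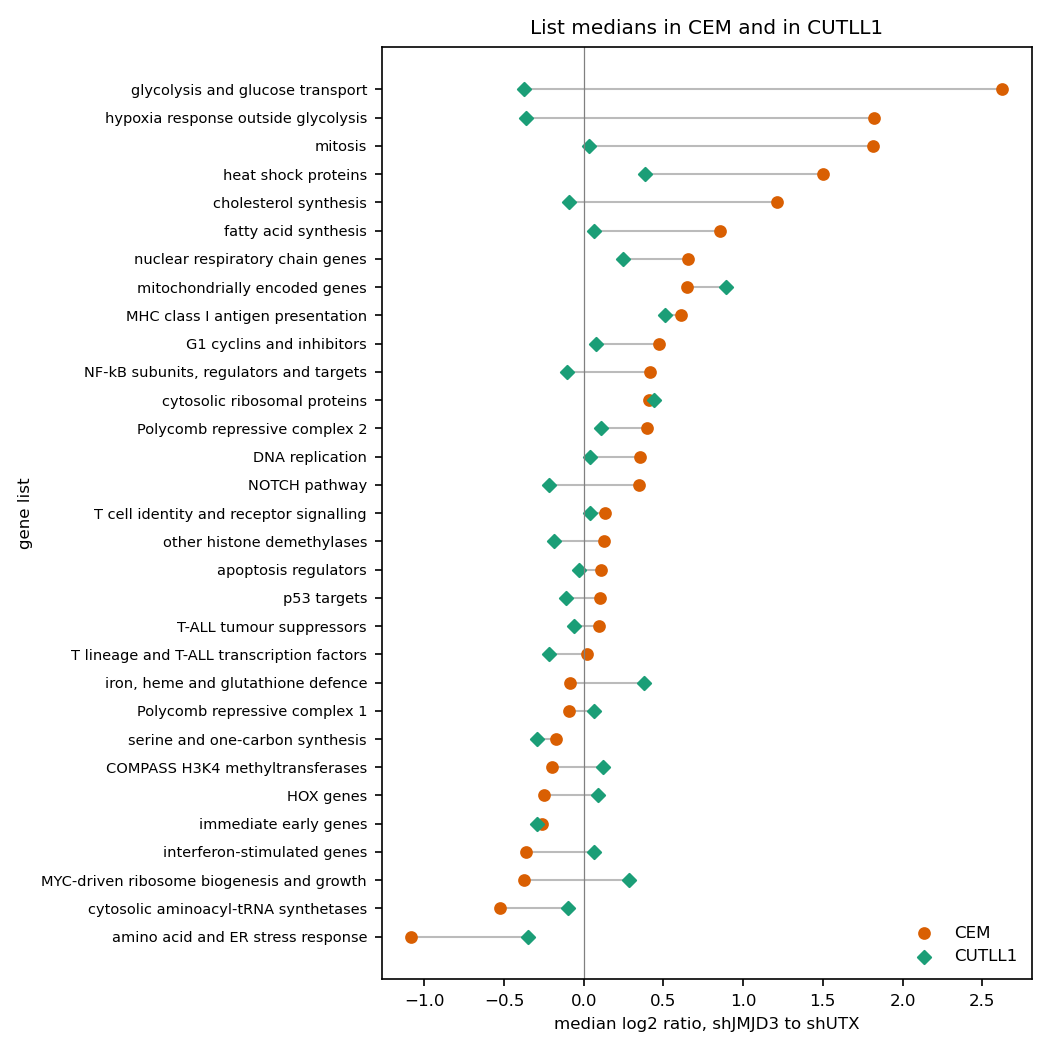
Median log2 ratio of shJMJD3 to shUTX for each gene list in CEM (circles) and in CUTLL1 (diamonds). Glycolysis, hypoxia and cholesterol lie above 0 in CEM and below it in CUTLL1, mitosis is at 1.82 and 0.03, and the amino acid and ER stress list is below 0 in both.

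The lists that stood highest in CEM had CUTLL1 medians that were nearer to 0 or below it. Glycolysis had a CUTLL1 median of -0.38, hypoxia -0.36, mitosis 0.03, cholesterol synthesis -0.10 and heat shock 0.38. CA9 was at -1.37 (-2.45 to -0.59) there, ADM at -1.11, PFKFB4 at -1.21 and SLC2A1 at -0.78. The difference between the lines was not tested, since each has 1 column per hairpin. Nuclear respiratory chain and ribosomal protein genes had positive medians in both lines under TMM, with 0.65 and 0.41 in CEM and 0.25 and 0.44 in CUTLL1. Column totals shift the CUTLL1 log2 ratios by -0.33, which is more than the respiratory median of 0.25. The shared sign of that list therefore depends on the scaling.

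The ratio also differed by transcript length, level and gene class. Protein-coding members in the shortest quartile of transcript length had a median log2 ratio of 0.19, and those in the longest quartile -0.12. Mean CPM comes from the same columns as the count minimum, so its values are only a description. By mean CPM, the lowest quartile had a median of -0.29 with 26.6% of genes at least 2-fold lower, and the highest 0.16 with 3.80% at least 2-fold lower. The median log2 ratio of shUTX to shRenilla was 0.01 in the shortest and 0.02 in the longest length quartile, and 0.01 and 0.02 in the lowest and highest quartile of level. Long noncoding RNAs of the lincRNA class were at least 2-fold lower in 112 of 419 members (26.7%) and higher in 70 (16.7%). Processed pseudogenes, whose reads are hard to tell from those of the parent gene, were higher in 120 of 465 (25.8%) and lower in 44 (9.46%). The part of length, level and class in the results of single lists was not tested.

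Erythroid, myeloid and NK markers were low, while the B lineage and fibroblast lists summed to more. B lineage markers had 7 of 12 genes among the members and summed to 281 CPM with shJMJD3, 219 with shUTX and 213 with shRenilla, of which IGLL1 made up 46.5, 1.65 and 0.813. Most of the B lineage sum thus lay in other listed genes, in every column. Myeloid markers had 2 of 12, at 9.66, 3.97 and 4.05 CPM, with ITGAM at 445 counts with shJMJD3, 23 with shUTX and 13 in the control. NK markers had 4 of 10, at 41.6, 22.1 and 36.6 CPM. Fibroblast markers had 4 of 11, and nearly all of their sum lay in VIM, which T-ALL cells also express, at 1909.7 CPM with shJMJD3, 699.5 with shUTX and 775 in the control. COL1A1 had 90 counts with shJMJD3, 30 with shUTX and 87 in the control, while LUM and PDGFRA had no count with either hairpin, and the list's median turned from 1.33 to -0.31 when members needed 200 counts. In bulk RNA, fewer cells of a type and less RNA per cell cannot be told apart.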

How the data were processed

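RNA from 14 samples of 2 T-ALL lines was column-purified, polyA-selected or ribosome-depleted, made into strand-marking dUTP libraries and sequenced as 50-nt single reads on an Illumina HiSeq, per the labels' protocols. TopHat, CASAVA and hg19 are listed, with no version, per the submitters' processing notes. The sources used here do not give the counting program, the gene models it used or whether it used strand, so overlapping, antisense and near-identical genes are uncertain. Per the file headers, the authors deposited for each pair of hairpins 1 raw read count per gene and hairpin, with p-values that the labels tie to DEGseq. The deposited p-values were only counted, at the authors' threshold of 0.001, by the sign of the deposited normalized fold change. The deposited fold changes were not used otherwise. The sources used here do not say which libraries each column pools. Each CEM column was identical in both tables that hold it.

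Counts were scaled with edgeR 4.0.16 (R 4.3.3) by TMM over the 3 CEM columns, or the 2 CUTLL1 columns. Log2 ratios used a prior count of 2. The 95% intervals are exact binomial (scipy 1.17.1) and treat reads as independent molecules. Differences were counted by size, at 2-fold and 1.5-fold, because 1 pooled column per hairpin allows no test. The ratio and interval were tested on simulated data. Ensembl identifiers matched GENCODE release 29 for 48932 of 55075 genes, which gave biotypes and transcript lengths but no coordinates, since its build differs from hg19. Symbols are those of the deposited tables; 4 listed symbols had no match. Missing values, where neither column had a count, were read as 0. Promoter sequences are RefSeq's, on GRCh38.p14.

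The members and the 37 gene lists were chosen with earlier results of these data known. Named genes are KDM6B and KDM6A, the 12 highest and 12 lowest protein-coding genes with 200 counts or more by the interval bound nearer to 0, and up to 5 members of each list in each direction at 1.5-fold or more. Also named are the 8 largest gains and 8 largest losses in CPM, 6 genes in each direction with the control near shJMJD3, and 8 in each direction in both lines. Further list members, HSPA6's motif, the promoters shown and the genes drawn were chosen after their values were seen. Alternatives were another scaling (column totals, DESeq2 1.42.0 size factors), prior count, count minimum, fold, gene class, list summary and closeness of the control.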

Additional observations from a re-analysis of the deposited data

Results flagged for a closer look

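Of the 34 lists with at least 3 genes measured in each line, 16 had medians of opposite sign in CEM and CUTLL1. In 13 of these the CEM median was under 1.5-fold, from -0.37 to 0.41, and the other 3 are given here. The median log2 ratio of the glycolysis and glucose transport list was 2.63 in CEM and -0.38 in CUTLL1. That of the hypoxia list was 1.82 in CEM and -0.36 in CUTLL1, and that of the cholesterol synthesis list 1.21 in CEM and -0.10 in CUTLL1. Single genes show the spread behind these medians: NDRG1 was at 3.75 in CEM and -0.44 in CUTLL1, BHLHE40 at 3.09 and -1.28, and HMGCS1 at 2.30 and -0.66. The difference between the lines was not tested, because each line has 1 pooled column per hairpin.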

How the results depend on the processing

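No paired analysis was possible because each column pools the samples of its hairpin and carries no replicate number, and leaving out a replicate was not possible for the same reason. With column totals in place of TMM, KDM6B stood at -1.92 and KDM6A at 0.75, 5 lists had a median at least 1.5-fold lower in place of 1, and 988 higher genes had the control near shUTX only. In both lines together, 124 genes were then higher and 258 lower, and 860 genes were lower in CUTLL1. A minimum of 10 counts gave 3251 lower genes, and no minimum gave 4749 higher and 4360 lower. At 1.5-fold there were 3548 higher and 3855 lower genes, and at 4-fold 499 and 518. Among protein-coding genes only, 922 were higher in CUTLL1 and 104 in both lines. List means in place of medians gave 2 lists lower. With a stricter limit on closeness to the control, 14 higher and 26 lower genes were near shJMJD3 only, and with a 2-fold limit 21 and 32. The fibroblast marker median turned from 1.33 to -0.31 at 200 counts. The other 47 comparisons of gene counts, list counts and the KDM6B and KDM6A ratios stayed within 1.5 times or the counting interval. Among them were all under DESeq2 size factors and prior counts of 0.5 and 8. The ratios of the other named genes held less well. Of these, 182 left their counting interval under column totals, 14 under DESeq2 size factors and 7 with a prior count of 8. Of 189 named genes at least 2-fold apart, 168 stayed so in the same direction under all 4 settings of scaling and prior count. The median changed sign under some setting for 10 of 36 lists. Depth limits genes near 50 counts, for which the interval spans several fold.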

Other observations

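Gene families outside the lists also stood apart in CEM; they were picked after their values were seen and get no test. The GIMAP genes encode GTPases of lymphocyte survival that lie in 1 cluster, and all 7 were members, 6 at least 2-fold higher with shJMJD3, with a median log2 ratio of 2.46. GIMAP7 was at 76.8 CPM with shJMJD3, 11.4 with shUTX and 9.10 in the control. GIMAP5 was at 72.8 CPM with shJMJD3, 15.2 with shUTX and 13.1 in the control, and GIMAP4 had 592 counts with shJMJD3, 41 with shUTX and 70 with shRenilla, the largest ratio of the family at 4.03 (3.64 to 4.59). GIMAP2 differed least, at 0.80 (0.73 to 0.87). Metallothioneins, which bind zinc and copper, had 6 members, 5 at least 2-fold higher, with a median of 2.17. MT2A was at 53.2 CPM with shJMJD3, 11.7 with shUTX and 9.58 in the control and MT1X at 33.0 CPM with shJMJD3, 7.32 with shUTX and 5.35 in the control. MT1F was the exception at 0.19 (-0.28 to 0.66). These genes resemble each other closely, so the split of reads among them is uncertain.

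The protocadherin gamma cluster, whose adhesion proteins share their last exons, had 21 members, all at least 2-fold lower with shJMJD3, with a median of -1.87 and values from -1.95 to -1.68. PCDHGA2 was at 8.70 CPM with shJMJD3, 33.4 with shUTX and 28.3 in the control, and PCDHGB4 at 11.8 CPM with shJMJD3, 38.0 with shUTX and 32.7 in the control. Because the genes share exons, their counts may be largely the same reads, and the 21 values are not 21 separate observations.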
